A study of Mus musculus with 8 samples.

Results

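The clustered replication-dependent histone genes are described here in cultured mouse hematopoietic stem cells, with and without eltrombopag. Every gene was taken whose current symbol starts with H1f, H2ac, H2bc, H3c or H4c and a digit, or whose older symbol starts with Hist1h, Hist2h, Hist3h or Hist4h. This symbol rule gave 57 of the 19505 genes with a named probe set, each measured by a single probe set: 8 H1, 13 H2A, 15 H2B, 10 H3 and 11 H4 genes. By their older symbols 46 lie in the Hist1 cluster and 8 in the Hist2 cluster. The rule also took in 3 H1 genes outside the clusters: H1f7, a testis form, H1f8, the oocyte form, and H1f10, a replication-independent linker histone. H1f6, H2ac1 and H2bc1 lie in the Hist1 cluster and are known from testis. H3c14 and H3c15 held equal values on all 8 arrays, so the 57 genes gave 56 distinct profiles. Many of these genes are near-identical in their coding sequence, and which gene a probe set reads is therefore uncertain.

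Replication-dependent histone genes supply the core histones H2A, H2B, H3 and H4 and the linker histone H1 that package newly copied DNA, and they are transcribed mainly in S phase. Their mRNAs end in a conserved stem-loop in place of a poly(A) tail. The stem-loop binding protein SLBP and the U7 small nuclear ribonucleoprotein process them, and NPAT, a substrate of cyclin E and CDK2, activates their transcription. Adult hematopoietic stem cells are mostly quiescent in the marrow and can enter the cell cycle in culture with stem cell factor.

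The study measured total RNA on Affymetrix mouse arrays with 4 arrays of vehicle (sterile water) and 4 of eltrombopag at 10 µg/ml, each after 16 h. Cells of both groups were sorted from mice 6 to 10 weeks old as lineage-negative, c-Kit+, Sca-1+, CD150+ and CD48-, and grown in Myelocult M5300 with 100 ng/ml recombinant mouse stem cell factor and 200 µg/ml Primocin. No strain, sex or genotype is stated in the labels. Eltrombopag is a small-molecule agonist of the human thrombopoietin receptor that also binds iron. About 10 ng of RNA per sample was amplified with a 3' IVT kit, and the labels do not say how that kit primes mRNAs that lack a poly(A) tail. The labels number the arrays 1 to 4 in each group as biological replicates without saying that each came from separate animals, so the p-values rest on the spread among these arrays, which may be technical. In such bulk samples fewer cells in S phase and less histone mRNA per cell cannot be told apart.

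All arrays had closely similar distributions, with lower quartiles of 4.99 to 5.11 and upper quartiles of 8.61 to 8.72 log2 units. Of the 10 stem cell markers listed, 8 were measured and 5 of them lay above the upper quartile of all genes, with Kit at a mean of 12.9. Cd48, which the sort excluded, had a mean of 6.08, at percentile 40.7 of all genes. All 3 measured T cell markers lay below the lower quartile, and 1 of the 3 measured B cell markers did. The 5 measured neutrophil and monocyte markers and the 2 measured erythroid markers lay between the quartiles by their means. Alas2, an erythroid enzyme of heme synthesis, read 7.87, 8.03, 8.91 and 8.85 with vehicle and 7.70, 7.51, 9.30 and 8.95 with eltrombopag. It was above the upper quartile on the arrays numbered 3 and 4, and was not picked by the rule for named genes. The other measured erythroid marker, Klf1, had a mean of 6.72.

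Many of the histone genes share promoter features that the symbol rule did not use, and these features differ by type. RefSeq start sites (assembly GRCm38.p6) were found for 52 of the 57 genes, 49 of them in the clusters, and the 250 bases before each start were searched on both strands, beside the same windows of all 32851 RefSeq promoters. The CCAAT box (CCAAT) was in 40 of the 49 clustered promoters against 33.9% of all promoters. It was in all 5 H1, 13 H2A and 13 H2B clustered promoters, and in 6 of 8 H3 promoters. Of 10 H4 promoters only 3 had it, a share near that of all promoters. TATAAA, the letters of the TATA box, was in 24 of 49 against 12.4%, at any distance and on either strand. These include matches far from the start (250 bases in H4c6) and matches on the opposite strand alone (H2bc22). The octamer ATTTGCAT, the binding motif of POU2F1, was in 6 of 13 H2A and 6 of 13 H2B promoters, in no H1, H3 or H4 promoter, and in 1.60% of all promoters. Windows of H2A and H2B genes that start back to back overlap, so a shared site counts in both genes. This holds for the octamers of H2ac1 and H2bc1, H2ac8 and H2bc8, and H2ac12 and H2bc12, and for CCAAT boxes of such pairs. The H1 box AAACACA was in 4 of 5 clustered H1 promoters against 6.25% of all. GTCCG, the core of the H4 element bound by HINFP, was in 9 of 10 H4 promoters against 19.2% of all. No motif contains another, though matches can overlap at their ends, and a match describes letters in a window, not a bound site.

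Of these windows 5 are printed, as an example of each histone type, and other genes of a type can differ in layout. Each is read 5′ to 3′ on the strand of the gene and ends at the base before the start. Capitals mark the motifs above on either strand, so a CCAAT box on the opposite strand reads ATTGG and an opposite TATA box reads TTTATA. H1f3 is the + strand of chr13:23554782-23555031 and carries an H1 box, a CCAAT box and a TATA box.
H1f3: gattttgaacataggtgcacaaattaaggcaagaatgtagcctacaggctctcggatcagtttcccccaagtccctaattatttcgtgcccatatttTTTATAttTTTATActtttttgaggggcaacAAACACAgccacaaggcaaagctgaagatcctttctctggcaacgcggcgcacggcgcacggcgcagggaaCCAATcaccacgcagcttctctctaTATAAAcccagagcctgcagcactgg
H2ac15 is the - strand of chr13:21753913-21754162, and holds CCAAT boxes that it shares with its neighbour H2bc15, whose start lies 164 bases away on the other strand. The capitals near its 5′ end match the letters GTCCG on the opposite strand. They lie inside H2bc15, past its start site, and are not taken as an H4 element here.
H2ac15: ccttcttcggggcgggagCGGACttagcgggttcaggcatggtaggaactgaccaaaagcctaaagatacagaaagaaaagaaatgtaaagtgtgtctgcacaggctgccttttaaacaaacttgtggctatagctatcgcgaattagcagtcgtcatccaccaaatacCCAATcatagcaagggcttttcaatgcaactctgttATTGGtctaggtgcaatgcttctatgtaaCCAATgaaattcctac
H2bc18 is the + strand of chr3:96269450-96269699, in the Hist2 cluster, and carries an octamer whose first base lies 48 bases before the start.
H2bc18: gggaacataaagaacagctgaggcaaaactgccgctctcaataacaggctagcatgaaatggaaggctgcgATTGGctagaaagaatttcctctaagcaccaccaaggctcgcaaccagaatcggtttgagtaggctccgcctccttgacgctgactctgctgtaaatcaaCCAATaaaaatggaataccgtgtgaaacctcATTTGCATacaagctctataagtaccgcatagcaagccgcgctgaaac
H3c13 is the + strand of chr3:96268404-96268653 and has CCAAT boxes alone of the motifs searched. Its window ends in tataa, and a TATAAA running past that end would not be counted.
H3c13: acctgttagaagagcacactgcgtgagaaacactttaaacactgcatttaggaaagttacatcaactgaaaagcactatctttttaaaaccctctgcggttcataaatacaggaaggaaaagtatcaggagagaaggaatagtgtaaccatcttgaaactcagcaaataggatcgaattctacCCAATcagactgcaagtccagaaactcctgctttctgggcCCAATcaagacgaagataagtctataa
H4c4 is the + strand of chr13:23581318-23581567, and its H4 element core, its CCAAT box and its TATA box begin 46, 40 and 32 bases before the start.
H4c4: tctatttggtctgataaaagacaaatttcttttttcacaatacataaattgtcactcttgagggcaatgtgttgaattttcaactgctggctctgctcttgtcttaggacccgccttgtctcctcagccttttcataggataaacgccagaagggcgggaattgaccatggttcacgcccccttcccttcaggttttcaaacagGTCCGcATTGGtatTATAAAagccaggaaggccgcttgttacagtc

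The histone genes were among the brighter signals of these arrays. Mean log2 values over the 8 arrays ran from 4.31 (H3c1) to 12.2 (H2ac22) with a median of 9.91, against a median of 6.79 over all genes. Of the 57, 43 lay above the upper quartile of all genes, 19 above the 95th percentile and 2, H2bc1 and H3c1, below the lower quartile. Levels are placed here only within the distribution of all probe sets, since the signals of different probe sets are not amounts of RNA.

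**Figure D1:**
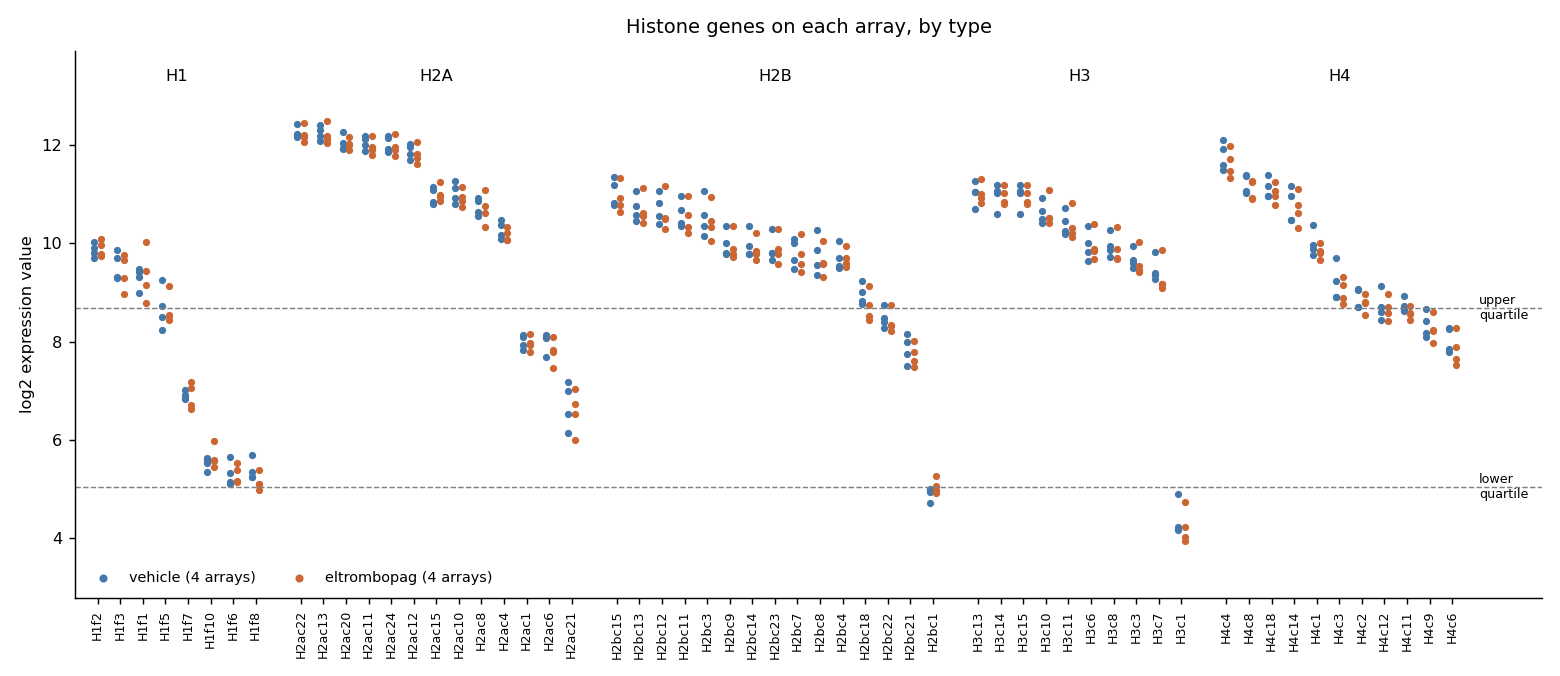
Log2 expression value of each of the 57 histone genes on each of the 8 arrays, by type and ordered by mean, with vehicle and eltrombopag arrays as separate points and dashed lines at the quartiles of all genes. Values of the groups interleave in every gene, and H3c1 and H2bc1 sit at the bottom.

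H2A genes held the brightest probe sets, with 9 of 13 above the 95th percentile. H2ac22 read 12.43, 12.23, 12.15 and 12.20 on vehicle arrays 1 to 4 and 12.43, 12.21, 12.16 and 12.06 on eltrombopag arrays 1 to 4. Array 1 was the highest in both groups, and the groups overlapped. H2ac13, also H2A, read 12.40, 12.29, 12.08 and 12.18 with vehicle and 12.47, 12.17, 12.13 and 12.03 with eltrombopag, and never differed from H2ac22 by more than 0.068 on an array.

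Among H2B genes 3 of 15 lay above the 95th percentile. H2bc15 was the brightest, with 11.34, 11.18, 10.77 and 10.82 on the vehicle arrays and 11.32, 10.91, 10.77 and 10.64 on the eltrombopag arrays. H2bc13 read 11.07, 10.75, 10.45 and 10.57 with vehicle and 11.11, 10.62, 10.55 and 10.41 with eltrombopag. In both genes array 1 of each group was above the other 6 arrays.

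For H3, 3 of 10 genes lay above the 95th percentile, and all 3 are in the Hist2 cluster. H3c13 read 11.27, 11.04, 10.69 and 11.04 with vehicle and 11.31, 10.92, 11.00 and 10.82 with eltrombopag. H3c14, whose values H3c15 repeats, read 11.19, 11.02, 10.60 and 11.05 with vehicle and 11.19, 10.85, 11.01 and 10.80 with eltrombopag. Vehicle array 3 was the lowest of the 8 in H3c13 and H3c14.

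H4 genes, known to encode near-identical proteins, had 4 of 11 above the 95th percentile. H4c4 read 12.09, 11.91, 11.58 and 11.49 with vehicle and 11.97, 11.72, 11.46 and 11.33 with eltrombopag. H4c8 read 11.38, 11.37, 11.02 and 11.05 with vehicle and 11.27, 11.25, 10.93 and 10.89 with eltrombopag. Arrays 1 and 2 were above arrays 3 and 4 within and across groups in both H4 genes.

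No linker histone gene reached the 95th percentile. H1f2, a somatic form, read 10.02, 9.90, 9.79 and 9.69 with vehicle and 10.09, 9.96, 9.75 and 9.79 with eltrombopag. H1f3, another somatic form, read 9.86, 9.70, 9.31 and 9.30 with vehicle and 9.76, 9.66, 8.97 and 9.29 with eltrombopag, so that numbers 1 and 2 lay above numbers 3 and 4. The means of the 5 forms known from testis or oocyte lay at percentile 24.1 of all genes for H2bc1, 28.3 for H1f8, 29.0 for H1f6, 51.4 for H1f7 and 66.1 for H2ac1.

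The first comparison asked whether eltrombopag changed histone gene expression within 16 h. No histone gene passed the test: limma, with Benjamini-Hochberg adjustment over all 19505 genes, called 0 genes (0% of those tested; smallest adjusted p = 0.99978). At an unadjusted limma p under 0.05 there were 0 of the 57 histone genes, against 650 of all genes (3.33%). The smallest unadjusted limma p of a histone gene was 0.0964, for H1f8. The 95% intervals of all 57 log2 differences lay within a 2-fold change in either direction, and the bound farthest from 0 was that of H2ac21 at -0.70.

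Histone gene means were mostly a little lower with eltrombopag. The mean was lower in 50 of the 57 genes, against 47.7% of all genes, with a median log2 difference of -0.068 against 0.0071 over all genes. Differences ran from -0.25 (H2bc18) to 0.15 (H2bc1). Leaving out vehicle array 1 turned the median to 0.020 with 23 genes lower, and leaving out eltrombopag array 4 turned it to 0.012 with 26 lower. A histone gene's profile over the arrays had a median correlation of 0.932 with that of the other clustered genes, so the count of lower genes is not a count of separate observations.

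By type, 11 of 11 H4 genes were lower with a median log2 difference of -0.12, 14 of 15 H2B genes with -0.081, 12 of 13 H2A genes with -0.060, 8 of 10 H3 genes with -0.019 and 5 of 8 H1 genes with -0.0088. The H4 median stayed below 0 when any 1 of the 8 arrays was left out, at -0.20 to -0.041, with 7 to 11 of the 11 genes lower. The other medians turned above 0 without some array: H2B reached 0.040 with 3 of 15 genes lower, H3 0.072 with 2 of 10, H1 0.057 with 3 of 8 and H2A 0.0021 with 6 of 13. Whether H4 differed from the other types was not tested. Only 7 histone genes had a higher mean with eltrombopag: H1f1, H1f2, H1f10, H2ac15, H2bc1, H3c10 and H3c13.

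**Figure D2:**
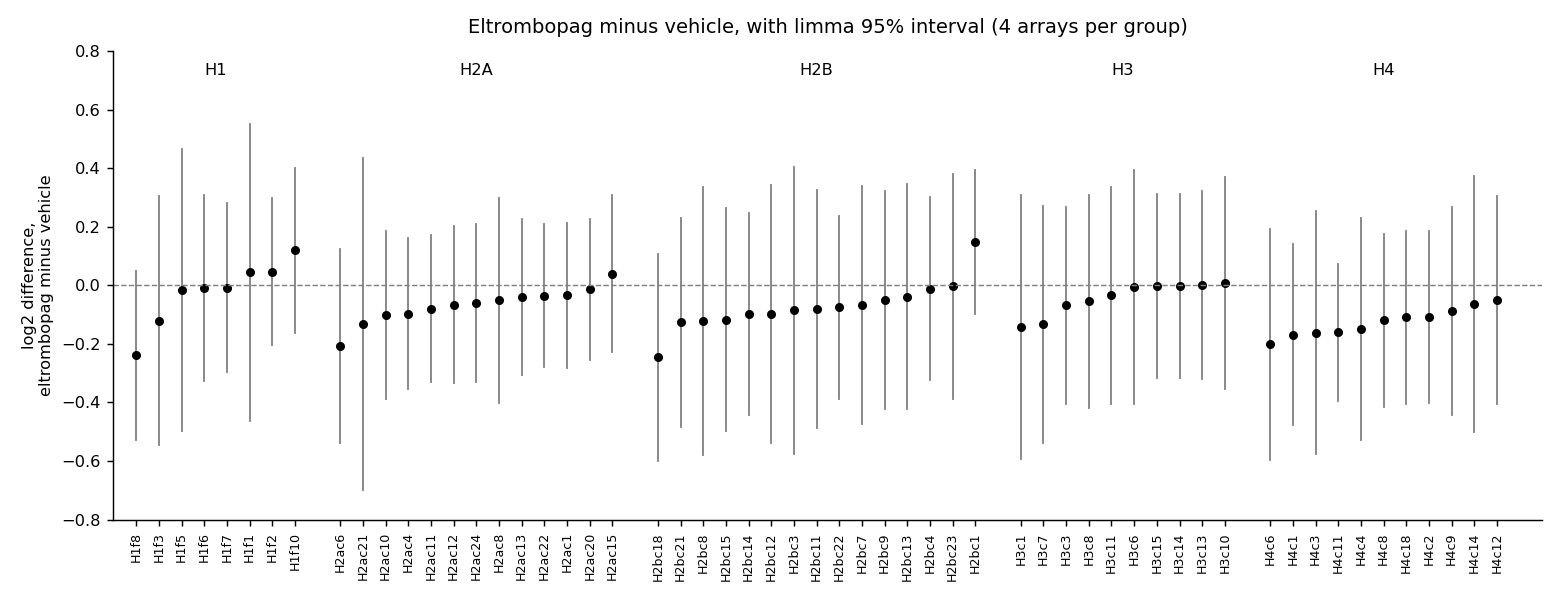
Log2 difference, eltrombopag minus vehicle, of each histone gene with its limma 95% interval (4 arrays per group), by type and in order of size. Every interval spans 0, and all 11 H4 points lie below it.

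The 2 genes with the smallest p in each type show the size of these differences. H2bc18, an H2B gene of the Hist2 cluster whose octamer promoter is shown above, read 9.22, 8.77, 9.01 and 8.82 with vehicle (mean 8.96 ± 0.21, SD, n = 4) and 9.12, 8.45, 8.75 and 8.53 with eltrombopag (8.71 ± 0.30, n = 4). Its log2 difference was -0.25 (SE 0.16, 95% interval -0.60 to 0.11, limma adjusted p = 0.99978). The groups overlapped although each eltrombopag array was below the vehicle array of the same number. H2bc1 read 5.01, 4.94, 4.98 and 4.72 with vehicle and 5.27, 4.93, 4.98 and 5.07 with eltrombopag, a difference of 0.15.

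H1f8, the oocyte linker histone, read 5.70, 5.25, 5.34 and 5.25 with vehicle (5.38 ± 0.21, n = 4) and 5.39, 5.10, 5.10 and 4.99 with eltrombopag (5.15 ± 0.17, n = 4), and differed by -0.24 (SE 0.13). All of these values lie near the lower quartile of the arrays. H1f10 read 5.60, 5.35, 5.54 and 5.64 with vehicle and 5.98, 5.46, 5.57 and 5.59 with eltrombopag, a difference of 0.12 (SE 0.13, 95% interval -0.16 to 0.40). H1f7 read 7.01, 6.91, 6.87 and 6.83 with vehicle and 7.17, 6.64, 7.07 and 6.72 with eltrombopag, with overlapping groups and a difference of -0.0077.

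For the core histones, H2ac6 read 8.11, 8.08, 7.68 and 8.13 with vehicle and 8.09, 7.83, 7.78 and 7.47 with eltrombopag, a difference of -0.21 (SE 0.15). H2ac4 read 10.47, 10.36, 10.07 and 10.16 with vehicle and 10.33, 10.21, 10.07 and 10.07 with eltrombopag, a difference of -0.097. Both H2A genes had overlapping groups.

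H3c7 read 9.82, 9.39, 9.36 and 9.27 with vehicle and 9.86, 9.18, 9.18 and 9.10 with eltrombopag, a difference of -0.13 (SE 0.18), and array 1 of each group stood above all others. H3c1, the dimmest histone gene, read 4.24, 4.91, 4.22 and 4.17 with vehicle and 4.24, 4.73, 3.95 and 4.04 with eltrombopag, a difference of -0.14 (SE 0.20). Here array 2, not array 1, was the highest in both groups. H4c1 read 10.37, 9.97, 9.89 and 9.76 with vehicle and 10.01, 9.84, 9.81 and 9.66 with eltrombopag, a difference of -0.17 (SE 0.14, 95% interval -0.48 to 0.14). H4c11 read 8.94, 8.73, 8.63 and 8.64 with vehicle and 8.71, 8.55, 8.59 and 8.44 with eltrombopag, a difference of -0.16 (SE 0.11), and its promoter has GTCCG 17 bases before the start.

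Within array numbers the histone genes were lower with eltrombopag in 27, 53, 26 and 49 of 57 genes for numbers 1 to 4, with median differences of 0.0019, -0.14, 0.019 and -0.15. Most genes were lower for numbers 2 and 4, while numbers 1 and 3 were divided about evenly. In all 4 numbers together, 15 of the 57 genes were lower with eltrombopag, against 5.87% of all genes, and 7 of these 15 were H4 genes. Groups did not overlap in 0 histone genes, against 1% of all genes with lower and 1.12% with higher eltrombopag values. With array number as a block in limma, 2 of the 57 had an unadjusted p under 0.05 (H1f8 and H2bc18), against 4.63% of all genes, and the adjusted p of both was 0.984 in that limma fit.

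**Figure D3:**
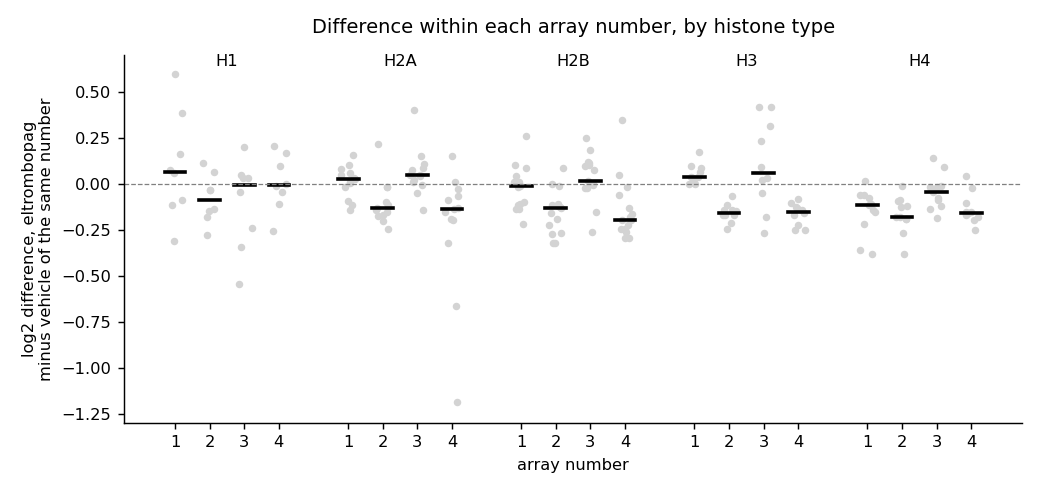
Log2 difference of the eltrombopag array from the vehicle array of the same number, for each histone gene (points) by type, with the median as a bar. Most H2A, H2B, H3 and H4 points lie below 0 for numbers 2 and 4, and H4 medians lie below 0 for all 4 numbers.

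The histone genes were high on the arrays numbered 1 in both treatments. Vehicle array 1 and eltrombopag array 1 were each above the gene's own mean in 56 of the 57 genes, and vehicle array 3 and eltrombopag array 3 in 3 of 57 each. The arrays numbered 2 differed, with 50 of 57 genes above their mean with vehicle and 18 with eltrombopag, while those numbered 4 had 6 and 2. The median deviation of the histone genes from their own means was 0.31, 0.080, -0.15 and -0.13 on vehicle arrays 1 to 4 and 0.28, -0.040, -0.11 and -0.24 on eltrombopag arrays 1 to 4. Over all genes that median stayed between -0.014 and 0.019. In 43 of the 57 both arrays numbered 1 were above the other 6 arrays, against 7.97% of all genes.

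**Figure D4:**
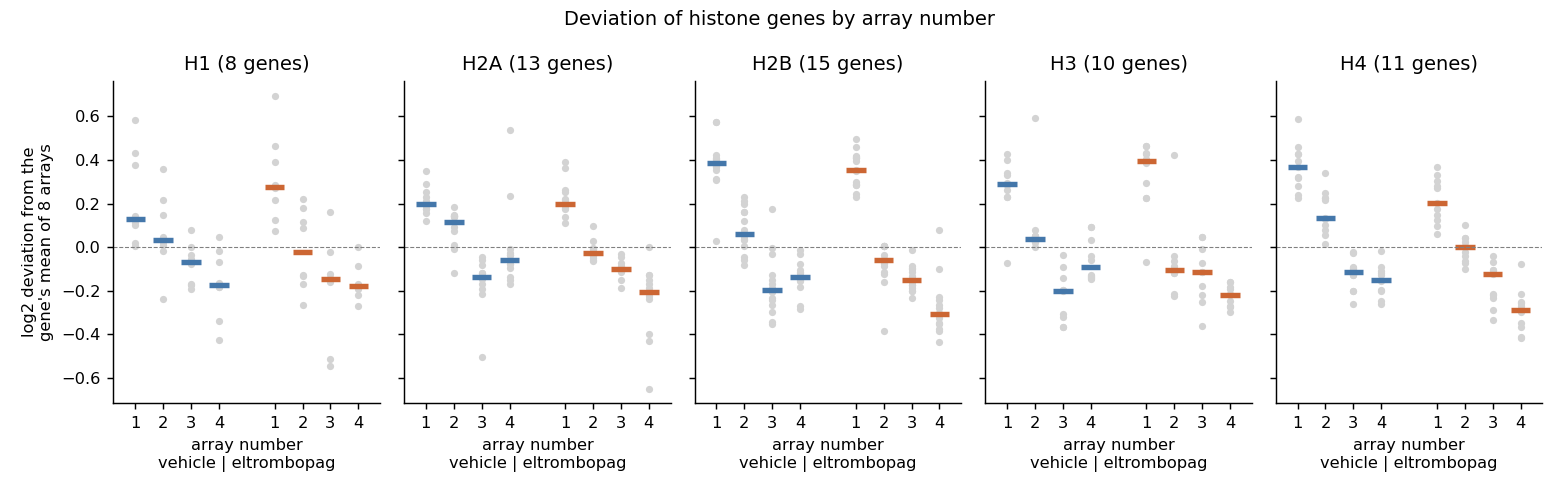
Log2 deviation of each histone gene (grey points) from its mean of 8 arrays, by array number within vehicle and eltrombopag and by histone type, with the median as a bar. Array 1 has the highest bar within vehicle and within eltrombopag in each of the 5 types.

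Means of the arrays numbered 1 were above the mean of the other arrays in 56 of 57 histone genes, against 54.7% of all genes, by a median of 0.40 log2 units, against 0.023 over all genes. Medians were 0.48 for H2B and for H3, followed by H4 with 0.43, H1 with 0.32 and H2A with 0.27. Other scalings of the arrays gave a median of 0.39 to 0.43 over the histone genes, with 56 of 57 above in each. H3c1 was the exception, at -0.094. The top values of their types were those of H1f5 at 0.70, H2bc3 at 0.69, H3c7 at 0.60, H4c14 at 0.53 and H2ac21 at 0.49, of which all but H3c7 were chosen after their values were seen. In H2ac21 the highest array was vehicle array 4, at 7.18, above vehicle array 1 at 6.99 and eltrombopag array 1 at 7.03.

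A limma test across the 4 array numbers, with treatment as a term, was chosen after the data were seen. At an unadjusted p under 0.05 it gave 36 of the 57 histone genes against 10.2% of all genes: 14 of 15 H2B, 9 of 11 H4, 7 of 10 H3, 4 of 8 H1 and 2 of 13 H2A. After adjustment over all genes it called 0 histone genes and 41 genes in all (0.21%), and the smallest adjusted p of a histone gene was 0.231, for H3c1. Without the arrays numbered 1, 6 of the 57 had an unadjusted p under 0.05, near the 8.29% of all genes in the same fit. With an intensity trend in the variance prior, limma called 14 histone genes among 203 genes (1.04% of all genes). H4c4 had the smallest adjusted limma p of those 14, 0.000715, and its means for numbers 1 to 4 were 12.03, 11.81, 11.52 and 11.41.

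Each gene's profile was set against the median profile of the other clustered histone genes over the 8 arrays, which share their arrays and treatments. Pearson's r had a median of 0.932 over the 57 genes and was above 0.8 in 44. It was under 0.5 in 3: H3c1 with 0.267 and H2bc1 with 0.458, both below the lower quartile of all genes, and H1f10 with 0.387, outside the clusters. H1f6, at 0.521, shared with H3c1 its highest values on the arrays numbered 2.

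Among the 49 clustered genes with a start site, 7 pairs of an H2A and an H2B gene start back to back within 400 bases. Their starts lie 164 to 281 bases apart. Genes without a start site could not be paired. Both genes of a pair were lower with eltrombopag in 5 of the 7, and both were higher on the arrays numbered 1 in 7 of 7. Of all H2A and H2B genes, 12 of 13 and 14 of 15 were lower. On the arrays numbered 1, 13 of 13 and 15 of 15 were higher. The counts therefore do not show that the genes of a pair vary together more than others of their types. The pair H2ac15 and H2bc15 differed in direction, at 0.039 and -0.12, as did the testis pair H2ac1 and H2bc1, at -0.034 and 0.15.

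Replacement histones, most of which are made outside S phase from polyadenylated mRNAs, were listed for a comparison within the histone family. H2ax is known to give a stem-loop mRNA as well. All 11 listed were measured, among them H1f10, which the symbol rule also took in, and limma called 0, with 0 at an unadjusted p under 0.05. Their median log2 difference was 0.021, with 4 of 11 lower, and the arrays numbered 1 exceeded the rest by a median of 0.099. The smallest p were those of Macroh2a2, a macroH2A, at -0.17 (95% interval -0.38 to 0.037), and H2al2a, a testis H2A, at 0.16 (-0.064 to 0.39). Cenpa, the centromeric H3, exceeded the rest by 0.50 on the arrays numbered 1 and was chosen after its values were seen.

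Factors that transcribe and process histone mRNA were measured for 29 of 31 listed genes, and limma called 0. Of the 29, 1 had an unadjusted p under 0.05, a share like the 3.33% of all genes. This was Ccne2, a cyclin E, which read 8.87, 8.73, 8.72 and 8.85 with vehicle and 8.57, 8.46, 8.57 and 8.70 with eltrombopag. Its groups did not overlap, as in 1% of all genes with lower eltrombopag values, and the difference was -0.22 (SE 0.094, 95% interval -0.42 to -0.0088, limma adjusted p = 0.99978). Snrpb, a core protein of small nuclear ribonucleoproteins, differed by 0.20 (-0.0088 to 0.41). Slbp differed by 0.050, Npat by -0.055, Hinfp by 0.13 and Casp8ap2, a cofactor of histone mRNA processing, by 0.23, with overlapping groups in each. On the arrays numbered 1 the list was lower than on the rest, by a median of -0.090, with 8 of 29 genes above.

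Histone chaperones, which carry histones to DNA, were measured for 26 of 27 listed genes, with 0 called by limma and 0 at an unadjusted p under 0.05. Chaf1a, a subunit of the CAF-1 complex that deposits new H3 and H4, differed by 0.22 (95% interval -0.033 to 0.48) and Supt16, a subunit of FACT, by -0.26 (-0.55 to 0.029). Asf1b, an H3 and H4 chaperone, differed by -0.052 and Nasp, which binds H1 and H3, by -0.044. The arrays numbered 1 were lower than the rest by a median of -0.10.

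S phase and DNA replication genes, were measured for 45 of 47 listed. Limma called 0 between treatments, with 2 at an unadjusted p under 0.05, a share near the 3.33% of all genes. Cdc6, a replication licensing factor, read 7.60, 7.76, 8.14 and 8.29 with vehicle and 7.25, 7.22, 7.89 and 7.66 with eltrombopag, a difference of -0.44 (SE 0.19, 95% interval -0.86 to -0.018). Gins2, of the replicative helicase, differed by 0.34 (0.0095 to 0.67), Pcna, the sliding clamp, by 0.084 and Mcm6, also of the helicase, by 0.027. Their adjusted limma p was 0.99978 in each.

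On the arrays numbered 1, where the histone genes were high, 10 of the 45 replication genes were above their mean of the other arrays, and the median difference was -0.18. Their median deviation was -0.19, -0.047, 0.032 and 0.16 on vehicle arrays 1 to 4 and -0.066, -0.13, 0.14 and 0.060 on eltrombopag arrays 1 to 4. Across array numbers 10 of the 45 had an unadjusted limma p under 0.05, against 10.2% of all genes. Of these 10, Mcm10 (0.57) and Ccna2 (0.36) were higher on the arrays numbered 1, like the histone genes, and all the others were lower there. Both were named after their values were seen. The 8 measured stem cell markers had a median difference of -0.27 on the arrays numbered 1, with 1 gene above the rest. For the 2 erythroid markers the median was -0.54, with 0 above. The 5 neutrophil and monocyte markers had a median of -0.15, with 2 above, and the 3 B cell markers -0.14, with 1 above. Cd48 was higher there, at 0.43. The 3 T cell markers, all below the lower quartile of all genes, had a median of 0.21, with 2 above. Their median deviation was -0.019 on vehicle array 1 and -0.0026 on eltrombopag array 1. What an array number stands for beyond a biological replicate is not given in the labels, and the part of these other genes in the array number pattern of the histone genes was not tested.

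**Figure D5:**
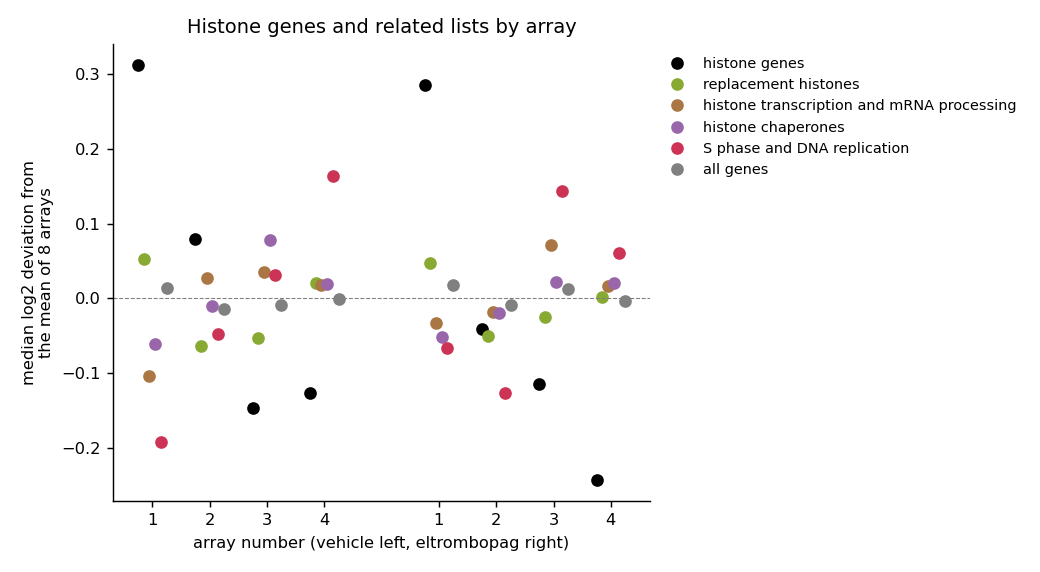
Median log2 deviation from the mean of 8 arrays on each array, for the 57 histone genes, the 4 related gene lists and all genes, with vehicle arrays at the left and eltrombopag arrays at the right. The histone genes are the highest points on both arrays numbered 1, at 0.31 and 0.28, where the replication genes are the lowest, at -0.19 and -0.066.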

How the data were processed

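Gene expression was measured on 8 Affymetrix arrays, and the deposited table gives each probe set on each array as a log2 value. RMA, oligo and limma are named in the submitters' processing notes, without versions. RMA sets the arrays to a common distribution, so a difference in total mRNA between arrays is not kept. Of 22206 probe sets, 19572 had 1 gene symbol in the platform annotation, 0 had several and 2634 were unnamed here. The 19505 genes were represented by the probe set with the highest mean. Columns of no sample in the table numbered 0. The number of arrays limits the precision.

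Groups and array numbers came from the sample titles. Treatments were compared by lmFit and eBayes of limma 3.58.1 (R 4.3.3) on all 8 arrays, two-sided, with Benjamini-Hochberg adjustment over all genes and a threshold of 0.05. Array numbers were taken to pair the arrays, since the deviations from group means correlated at 0.142 to 0.294 for equal numbers and at -0.208 to 0.171 for different ones.

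Named genes were, in each histone type, the 2 brightest and the 2 with the smallest p, members outside the clusters, in each related list the 2 with the smallest p, and 9 fixed genes (Slbp, Npat, Hinfp, Casp8ap2, Chaf1a, Asf1b, Nasp, Pcna and Mcm6). Any member whose groups did not overlap would also have been named. The members and lists were chosen with earlier results of these data known. Of 146 list entries, markers included, 133 were measured. Alternatives were other scalings, a filter on dim genes, probe set averaging, array weights, an intensity trend, array number as a block and leaving out arrays.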

Additional observations from a re-analysis of the deposited data

Results flagged for a closer look

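In 5 of 86 groups of 4 arrays looked at, a named gene had 1 array farther from the rest than Dixon's 95% limit allows, and chance gives about 1 in 20, or 4.3. H2ac6, an H2A gene, read 7.68 on vehicle array 3 against 8.08 to 8.13 on the other vehicle arrays. H3c7 read 9.86 on eltrombopag array 1 against 9.10 to 9.18, and its vehicle array 1 was also the highest of its group. H3c1, the dimmest histone gene, read 4.91 on vehicle array 2 against 4.17 to 4.24, and eltrombopag array 2 was likewise the highest of its group at 4.73. Chaf1a, the histone chaperone subunit, read 8.59 on vehicle array 1 against 8.78 to 8.79 and 8.66 on eltrombopag array 2 against 9.03 to 9.09.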

How the results depend on the processing

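No alternative gave a gene called between treatments, and other scalings, probe set averaging, array weights, a filter on dim genes and the blocks left the median below 0 (-0.036 with array weights, where 40 of 57 genes were lower, to -0.078 with equal medians). Leaving out 1 array or 1 array number moved the histone median between -0.18 and 0.020, the count of lower genes between 23 and 55, and the count at an unadjusted p under 0.05 between 0 and 2 (H1f8 and H2bc18). The median was above 0 without vehicle array 1 (0.020) and without eltrombopag array 4 (0.012). The replicate block gave 2 such genes and changed no other call. Across array numbers, limma called 203 genes and 14 histone genes with an intensity trend. Without each number in turn it called 2 to 13 genes and 0 histone genes, and 6 to 37 histone genes had an unadjusted p under 0.05, the 6 without number 1.

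Of 37 named genes, 22 kept the sign of their difference under all 22 alternatives, and 15 did not, none of them passing a threshold. Equal medians turned H3c13 to -0.0084, and array weights turned H2bc13 to 0.0027 and H3c14 to 0.034. With numbers 1 and 2 alone H3c13 was at -0.041. With numbers 3 and 4 alone H1f10 was at -0.0070, H3c14 at 0.082, H1f7 at 0.044 and Mcm6 at -0.033. The cause was not tested. When arrays were left out, the differences of the genes that changed sign ranged as follows: H1f2 -0.017 to 0.10, H1f3 -0.24 to 0.031, H2ac22 -0.11 to 0.023, H2ac13 -0.13 to 0.017, H2bc13 -0.18 to 0.081, H3c13 -0.11 to 0.089, H3c14 -0.14 to 0.081, H3c1 -0.31 to 0.032, H1f7 -0.099 to 0.082, Npat -0.11 to 0.0061, Hinfp -0.027 to 0.25, Asf1b -0.12 to 0.038, Nasp -0.12 to 0.054 and Mcm6 -0.031 to 0.10.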
